A study of Mus musculus with 6 samples.

Results

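Of the 22 tRNAs encoded by the mouse mitochondrial genome, 14 are read from the heavy-strand transcript, and the first 6 of these, in genome order, are described here. They are mt-Tf, mt-Tv, mt-Tl1, mt-Ti, mt-Tm and mt-Tw, which lie from the start of the rRNA genes to the end of mt-Nd2. They were chosen by position and not by any measured value, although earlier results of these data were known. All 6 were found by their transcript identifiers among the 1929 short transcripts of the table. The comparison asked whether their levels, and their shares of all mitochondrial tRNA counts, differed when RNA polymerase III (Pol III) carried a mutation, although Pol III does not make them.

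The libraries were made from short RNA of the duodenum, where the small intestine begins, in female mice fasted overnight. The wild-type group held 3 mice labelled C57Bl/6N. The other group held 3 mice heterozygous for Polr3b em7(IMPC)Tcp on C57BL/6N, an allele made with a Cas9 nickase whose small insertion is predicted to shift the reading frame of Polr3b, a subunit gene of the Pol III core. In both groups short RNA had been selected by size and demethylated. The heterozygotes represent a single mutant line, and the groups came from separate matings, so genotype and parentage cannot be told apart. The age of the mice was not given in the sources used here. Which heterozygous column belongs to which mouse was not given in the sources used here, so these libraries are numbered in column order. The labels name each library as a separate mouse, and p-values measure the spread between these libraries.

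Mitochondrial tRNAs are made by the mitochondrial RNA polymerase, which copies each strand of the circular genome into long transcripts. Most rRNA and mRNA stretches of these transcripts are flanked by tRNAs. RNase P cuts at the 5′ end of each tRNA and RNase Z (ELAC2) at its 3′ end, so that excision of the tRNAs also frees the rRNAs and mRNAs, and CCA is then added to the tRNA. All 6 tRNAs are read from the heavy-strand transcript, and their final levels also depend on cutting, modification and decay. Whether all 6 come from the same precursor molecules was not tested.

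The sequences below show the anticodon each tRNA reads with and how little the 6 resemble each other, which bears on whether reads could be divided wrongly among them. They are the GENCODE vM21 transcripts on the + strand of the mitochondrial genome (chrM, GRCm38), written 5′ to 3′ as DNA without the added CCA, with the anticodon in capitals.
mt-Tf: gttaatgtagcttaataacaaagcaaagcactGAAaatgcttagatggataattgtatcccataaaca
mt-Tv: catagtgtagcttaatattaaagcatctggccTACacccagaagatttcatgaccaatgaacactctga
mt-Tl1: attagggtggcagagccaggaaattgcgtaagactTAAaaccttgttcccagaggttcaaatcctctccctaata
mt-Ti: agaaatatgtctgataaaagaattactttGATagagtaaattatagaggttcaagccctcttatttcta
mt-Tm: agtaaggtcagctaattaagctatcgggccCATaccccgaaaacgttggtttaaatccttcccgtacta
mt-Tw: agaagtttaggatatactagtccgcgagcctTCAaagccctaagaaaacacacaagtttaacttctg

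mt-Tf (chrM:1-68) carries phenylalanine and ends 1 base before the 12S rRNA gene mt-Rnr1. mt-Tv (chrM:1025-1093) carries valine and fills the space between mt-Rnr1 and the 16S rRNA gene mt-Rnr2, touching both. In mammalian mitochondrial ribosomes a valine or phenylalanine tRNA, depending on the species, is built into the large subunit, which has no 5S rRNA. mt-Tl1 (chrM:2676-2750), a leucine tRNA, touches mt-Rnr2 on one side and mt-Nd1 on the other. mt-Ti (chrM:3706-3774) carries isoleucine, overlaps the end of mt-Nd1 by 2 bases and overlaps mt-Tq, on the opposite strand, by 3 bases. mt-Tm (chrM:3845-3913) carries methionine for both the start and the inside of mitochondrial proteins, lies 2 bases from mt-Tq and touches mt-Nd2. mt-Tw (chrM:4950-5016) carries tryptophan, overlaps the end of mt-Nd2 by 2 bases and lies 1 base from mt-Ta on the opposite strand. Whether the counting used strand was not given in the sources used here, but these overlaps cover only a few bases of each tRNA.

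The 6 sequences were 67 to 75 bases long and shared 42.9% to 59.2% of aligned bases with each other, with a median of 53.8%. In their GC content they ran from 27.5% for mt-Ti to 44.9% for mt-Tm. The anticodon stem could form 5 of 5 pairs in mt-Tf, mt-Tv, mt-Ti and mt-Tm, 4 in mt-Tl1 and 3 in mt-Tw. Base 9, often a methylated purine in mitochondrial tRNAs, was A in mt-Tf, mt-Tv and mt-Tw, G in mt-Tl1 and mt-Ti, and C in mt-Tm. A methyl group at this base stops reverse transcriptase, and how completely it had been removed from each tRNA was not tested. No other transcript among the 1356 with a sequence matched any of the 6 at 80% identity or more over 80% of its length, and the longest other alignment covered 39.1% of a tRNA. The other 573 transcripts had no sequence used here.

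Column totals ran from 1719869 to 9771623 estimated counts, and the 6 tRNAs together held 28160, 190617 and 178660 counts in the wild-type and 334892, 174477 and 66724 in the heterozygous libraries. They made up 1.64%, 4.67% and 4.81% of the table in the wild-type and 3.78%, 1.79% and 2.17% in the heterozygous libraries. Wild-type replicate 1 stood apart, with the lowest total and with 4.98% of its counts in mitochondrial tRNAs, against 7.56% to 20.1% in the other 5 libraries. Hairpins of 9 microRNAs of intestinal epithelium had 9 to 155 summed counts per library, and each was counted in at least 1 library. In wild-type replicate 1, 5 of the 9 were at 0, against 0 to 2 in the other libraries. In the same libraries, 2 smooth-muscle hairpins had 3 to 84 summed counts, 3 blood and immune hairpins had 1 to 33, 2 hairpins of exocrine pancreas had 2 in wild-type replicate 1 and 0 elsewhere, and the liver hairpin had 1 in heterozygous replicate 1 and 0 elsewhere. The part of these in the results was not tested. In RNA from whole tissue, fewer cells of a type and less RNA per cell cannot be told apart.

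None of the 6 tRNAs differed between the genotypes at a DESeq2 adjusted p-value under 0.1, where 2.32% of the 734 transcripts tested were called. At an unadjusted p-value under 0.05 the count was also 0 of 6, where 6.81% of all transcripts tested lay. The edgeR quasi-likelihood test likewise called 0 of 6 and put 0 at an unadjusted p-value under 0.05, with 0.0% of 577 transcripts called and 3.29% at that unadjusted p-value. The log2 fold changes, heterozygous over wild type, ran from -0.83 to 0.35 with a median of 0.16, beside a median of -0.04 over all transcripts tested. Of these fold changes, 4 were above 0 and 2 below, but with library totals in place of size factors all 6 lay below 0 and the median of all transcripts moved to -0.48.

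**Figure D1:**
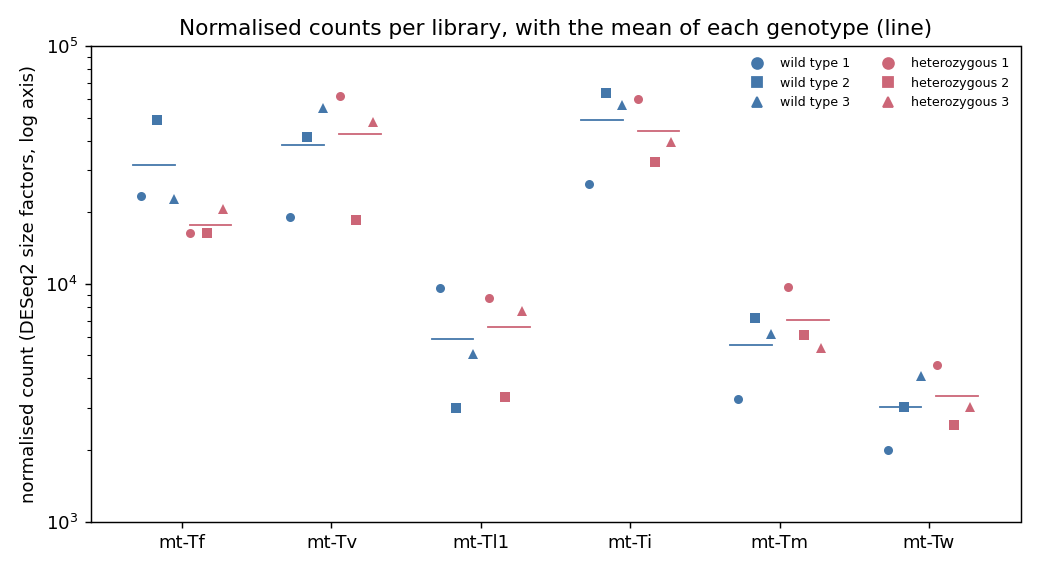
Normalised counts (log axis, DESeq2 size factors) of the 6 tRNAs, with a point for each library and a line at the mean of each genotype (3 libraries each). The genotypes overlap for every tRNA but mt-Tf, whose 3 heterozygous libraries lie at 16337 to 20540, below the 3 wild-type libraries.

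The phenylalanine and valine tRNAs on either side of the 12S rRNA gene were, with mt-Ti, the abundant ones of the 6. mt-Tf had 23307, 48908 and 22624 normalised counts in the wild-type and 16337, 16362 and 20540 in the heterozygous libraries. Each heterozygous library was below each wild-type library, with wild-type replicate 2 far above the rest. The means were 31613 ± 14982 and 17746 ± 2419 normalised counts (SD, n = 3 each), and the log2 fold change was -0.83 (SE 0.54, 95% interval -1.89 to 0.23, DESeq2 adjusted p = 1). This was the only 1 of the 6 whose genotypes did not overlap, and 10.2% of all transcripts tested showed such a gap in either direction. Without wild-type replicate 2 the log2 fold change of mt-Tf was -0.35.

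mt-Tv had 19029, 41218 and 54674 normalised counts in the wild-type and 61864, 18611 and 47952 in the heterozygous libraries. The highest and the lowest library were both heterozygous, so the genotypes overlapped throughout. The means of 38307 ± 18000 and 42809 ± 22080 normalised counts (SD, n = 3 each) gave a log2 fold change of 0.16 (SE 0.74, 95% interval -1.3 to 1.62, DESeq2 adjusted p = 1).

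mt-Tl1, the leucine tRNA between the 16S rRNA and mt-Nd1, had 9587, 3020 and 5051 normalised counts in the wild-type and 8709, 3344 and 7699 in the heterozygous libraries. Its highest and lowest libraries were both wild type. The log2 fold change was 0.16 (SE 0.72, 95% interval -1.26 to 1.58, DESeq2 adjusted p = 1), from means of 5886 ± 3363 and 6584 ± 2851 normalised counts (SD, n = 3 each).

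mt-Ti, the isoleucine tRNA after mt-Nd1, had 26385, 63374 and 56383 normalised counts in the wild-type and 59565, 32530 and 39325 in the heterozygous libraries. The heterozygous libraries all lay inside the wild-type range. The means were 48714 ± 19651 and 43807 ± 14064 normalised counts (SD, n = 3 each). Its log2 fold change was -0.15 (SE 0.59, 95% interval -1.32 to 1.01, DESeq2 adjusted p = 1). This fold change turned to 0.01 with size factors that left out mitochondrial tRNAs and all features with RNAcentral identifiers.

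The tRNAs on either side of mt-Nd2 were, with mt-Tl1, the scarce ones of the 6. mt-Tm, the methionine tRNA, had 3283, 7170 and 6136 normalised counts in the wild-type and 9687, 6121 and 5383 in the heterozygous libraries, and its log2 fold change was 0.35 (SE 0.57, 95% interval -0.76 to 1.46, DESeq2 adjusted p = 1). mt-Tw, the tryptophan tRNA, had 1995, 3044 and 4098 normalised counts in the wild-type and 4543, 2559 and 3029 in the heterozygous libraries, and its log2 fold change was 0.15 (SE 0.54, 95% interval -0.91 to 1.2, DESeq2 adjusted p = 1). The means, wild type first, were 5530 ± 2013 and 7063 ± 2302 for mt-Tm and 3046 ± 1052 and 3377 ± 1037 for mt-Tw (normalised counts, SD, n = 3 each). In both, heterozygous replicate 1 was the highest library and wild-type replicate 1 the lowest. The log2 fold change of mt-Tm was 0.06 without the former and 0.10 without the latter.

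**Figure D2:**
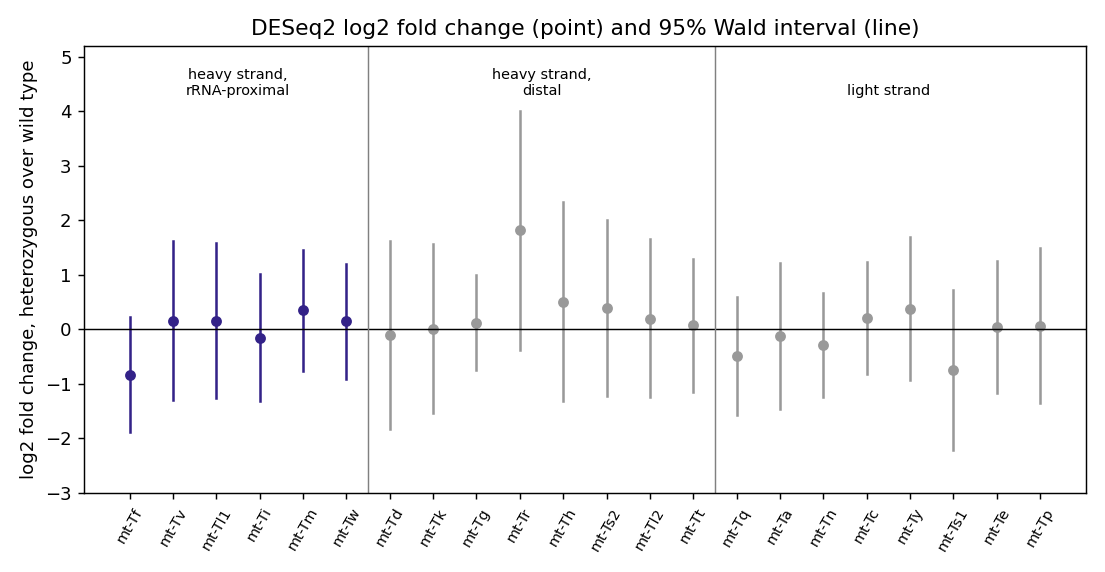
DESeq2 log2 fold change (heterozygous over wild type, points) with its 95% Wald interval (lines) for the 22 mitochondrial tRNAs, the 6 rRNA-proximal ones in dark blue. All 22 intervals include 0, and the intervals of the 6 reach from -1.89 to 1.62.

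None of the other mitochondrial tRNAs was called either. The 8 distal heavy-strand tRNAs lie after the 6 in genome order. Their log2 fold changes ran from -0.1 to 1.82 with a median of 0.16, and 0 of 8 were called by DESeq2. The 8 light-strand tRNAs ran from -0.74 to 0.38 with a median of -0.03, and 0 of 8 were called. Genotypes did not overlap for 0 of either group. The table also held 2 short mitochondrial mRNAs. On the log2 scale the fold change of mt-Atp8, an ATP synthase subunit, was -0.32 (SE 0.79). That of mt-Nd4l, a complex I subunit, was 0.68 (SE 1.41), and neither was called by DESeq2. mt-Nd4l had 0 counts in wild-type replicate 1, the library with the lowest total, and 54 to 421 in the others.

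The share of a tRNA in all mitochondrial tRNA counts does not depend on size factors. The 6 tRNAs held 32.9%, 23.2% and 27.8% of these counts in the wild-type and 23.6%, 23.6% and 24.8% in the heterozygous libraries, against 27.3% if every tRNA counted the same. The heterozygous libraries lay close together and inside the wild-type range, which wild-type replicate 1 and wild-type replicate 2 set. The means were 28.0% ± 4.83 and 24.0% ± 0.715 (SD, n = 3 each), a log2 difference of -0.21 (exact permutation test over samples, two-sided, p = 0.4). With 3 libraries against 3 this test cannot give a p-value below 0.1. Without wild-type replicate 1 the log2 difference was -0.08 (exact permutation p = 0.7). Without wild-type replicate 2 it was -0.33 (exact permutation p = 0.1, the smallest possible).

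Per tRNA, 0 of the 6 shares separated the genotypes, while 5.59% of all transcripts tested did so relative to the mitochondrial tRNA total. mt-Tf had 9.17%, 6.82% and 4.22% of mitochondrial tRNA counts in the wild-type and 2.40%, 4.86% and 4.12% in the heterozygous libraries. Wild-type replicate 3 fell within the heterozygous range, unlike in the normalised counts. The log2 difference in share was -0.82 (exact permutation p = 0.2, Benjamini-Hochberg over the 6 shares 0.6), and from -1.12 to -0.52 with each library left out.

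mt-Ti was the steadiest of the 6, with shares of 10.4%, 8.83% and 10.5% in the wild-type and 8.75%, 9.66% and 7.88% in the heterozygous libraries. Its log2 difference was -0.18 (exact permutation p = 0.2, Benjamini-Hochberg 0.6). mt-Tv held 7.49%, 5.74% and 10.2% in the wild-type and 9.08%, 5.52% and 9.61% in the heterozygous libraries, with a log2 difference of 0.05 (exact permutation p = 1). The ranges of both genotypes nearly coincided for mt-Tv.

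The other members had lower mean shares. mt-Tl1 had 3.77%, 0.421% and 0.943% in the wild-type and 1.28%, 0.993% and 1.54% in the heterozygous libraries, with a log2 difference of 0.13 (exact permutation p = 0.9). Wild-type replicate 1 was far above the rest and wild-type replicate 2 far below. Without the former the log2 difference was 0.99 (exact permutation p = 0.1, the smallest possible). Without the latter it was -0.59 (exact permutation p = 0.7).

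mt-Tm had 1.29%, 0.999% and 1.15% of mitochondrial tRNA counts in the wild-type and 1.42%, 1.82% and 1.08% in the heterozygous libraries, with a log2 difference of 0.31 (exact permutation p = 0.3, Benjamini-Hochberg 0.6). mt-Tw had 0.785%, 0.424% and 0.765% in the wild-type and 0.667%, 0.760% and 0.607% in the heterozygous libraries, with a log2 difference of 0.09 (exact permutation p = 1). The 95% Wilson interval of a share reached at most 0.204 percentage points to either side, for mt-Ti in the shallowest library, and 0.013 to 0.059 for mt-Tw.

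**Figure D3:**
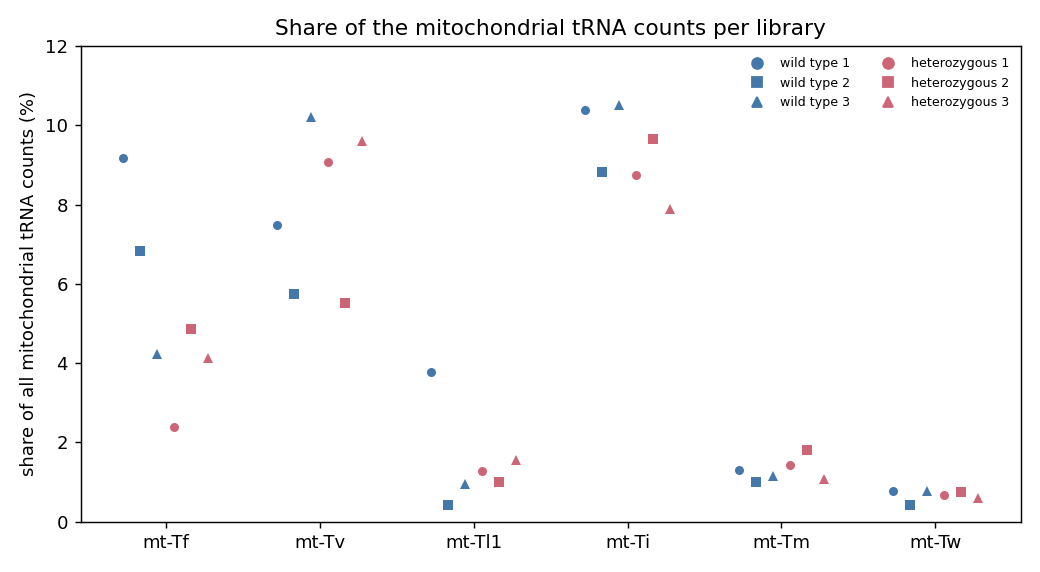
Share of each of the 6 tRNAs in all mitochondrial tRNA counts (%), with a point for each of the 6 libraries. mt-Ti stays between 7.88% and 10.5%, while mt-Tf runs from 2.40% to 9.17% and mt-Tl1 from 0.421% to 3.77%.

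Some of the 6 tRNAs kept an even share across the 6 libraries and others did not. The SD of the log2 share was 0.16 for mt-Ti, 0.31 for mt-Tm, 0.34 for mt-Tw, 0.38 for mt-Tv, 0.67 for mt-Tf and 1.03 for mt-Tl1. mt-Ti was the third most even of the 22 mitochondrial tRNAs, and mt-Tf and mt-Tl1 ranked 19 and 21. The highest share of mt-Tl1 was 8.97 times its lowest, and for mt-Ti the figure was 1.33.

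Against the distal heavy-strand tRNAs, the summed counts of the 6 stood at ratios of 1.53, 0.672 and 0.821 in the wild-type and 0.600, 0.689 and 0.670 in the heterozygous libraries. Wild-type replicate 1 was the only library with more counts in the 6 than in the 8 distal tRNAs. The log2 difference was -0.54 (exact permutation p = 0.2, Benjamini-Hochberg over both ratios 0.4). Without that library it was -0.19 (exact permutation p = 0.4). Without wild-type replicate 2 it was -0.78 (exact permutation p = 0.1, the smallest possible). Against the 8 light-strand tRNAs the ratios were 0.721, 0.551 and 0.725 in the wild-type and 0.636, 0.560 and 0.652 in the heterozygous libraries, with a log2 difference of -0.10 (exact permutation p = 0.6). This difference turned to 0.04 when the mean of the log2 counts was used in place of the sum. With the sum but without wild-type replicate 2 the difference was -0.23 (exact permutation p = 0.1, the smallest possible).

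Compared per base, the 6 tRNAs fell into abundant and scarce ones. The level was expressed as the percent of mitochondrial tRNA counts per base, so that tRNAs of different length could be compared. mt-Ti held 9.18% ± 1.04, mt-Tv 7.80% ± 1.96 and mt-Tf 5.26% ± 2.40 (SD, n = 6 libraries of both genotypes). mt-Tl1 held 1.35% ± 1.08, mt-Tm 1.27% ± 0.293 and mt-Tw 0.676% ± 0.141.

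Neighbours in this order did not all keep it in every library. mt-Ti exceeded mt-Tv in 4 of 6 libraries and mt-Tv exceeded mt-Tf in 4 of 6, although mt-Ti exceeded mt-Tf in 6 of 6. mt-Tf exceeded mt-Tl1 in 6 of 6, mt-Tl1 exceeded mt-Tm in only 2 of 6 although its mean was higher, and mt-Tm exceeded mt-Tw in 6 of 6. mt-Ti was the top member in 4 libraries and mt-Tv in heterozygous replicates 1 and 3.

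Together mt-Tf, mt-Tv and mt-Ti made up 82.2%, 92.1% and 89.7% of the counts of the 6 in the wild-type and 85.7%, 84.9% and 87.0% in the heterozygous libraries. Among all 22 mitochondrial tRNAs, mt-Ti ranked between 1 and 5 per base and mt-Tw at 20 or 21. mt-Tf ranked between 2, in wild-type replicate 1, and 15, with a median rank of 11. Among all 22 it was thus abundant in some libraries only. In the other groups, by mean normalised count, mt-Tk (42253) was the highest and mt-Tg (2022) the lowest among the distal heavy-strand tRNAs, and mt-Tp (46246) and mt-Ty (6405) were the extremes of the light strand.

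**Figure D4:**
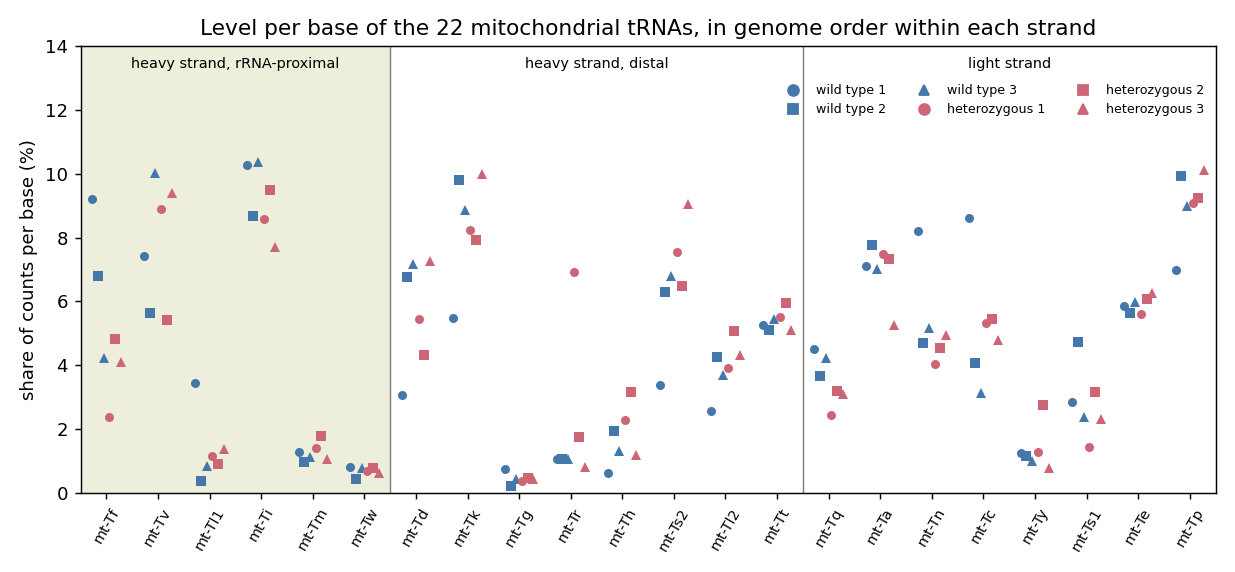
Level per base (percent of mitochondrial tRNA counts per base) of all 22 mitochondrial tRNAs, with a point for each of the 6 libraries and the 6 rRNA-proximal tRNAs shaded. Within the shaded group mt-Tf, mt-Tv and mt-Ti have means of 5.26% to 9.18% and mt-Tl1, mt-Tm and mt-Tw have means of 0.676% to 1.35%.

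Steps between neighbours in genome order were tested within libraries. The exact sign-flip permutation test over the 6 libraries has a smallest possible p-value of 0.031. The first step was not resolved. Per base, mt-Tf over mt-Tv gave ratios of 1.24, 1.20 and 0.420 in the wild-type and 0.268, 0.892 and 0.435 in the heterozygous libraries, with mt-Tf higher in 2 of 6 libraries (exact permutation p = 0.219).

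Across the 16S rRNA gene the level dropped in every library. mt-Tv over mt-Tl1 gave ratios of 2.16, 14.8 and 11.8 in the wild-type and 7.72, 6.05 and 6.77 in the heterozygous libraries, a geometric mean of 7.01 (exact permutation p = 0.031, Benjamini-Hochberg over the 5 steps 0.0391). The step was smallest in wild-type replicate 1, where mt-Tl1 was high.

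Across mt-Nd1 the level went up in every library. mt-Tl1 over mt-Ti gave ratios of 0.334, 0.0438 and 0.0824 in the wild-type and 0.135, 0.0946 and 0.180 in the heterozygous libraries, so that mt-Ti was 8.44-fold higher as a geometric mean (exact permutation p = 0.031, Benjamini-Hochberg 0.0391). mt-Tl1 was thus below both of its neighbours among the 6 in 6 of 6 libraries.

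Between mt-Ti and mt-Tm, which are separated only by mt-Tq on the opposite strand, the level dropped again. The ratios per base were 8.03, 8.84 and 9.19 in the wild-type and 6.15, 5.31 and 7.31 in the heterozygous libraries, a geometric mean of 7.34 (exact permutation p = 0.031, Benjamini-Hochberg 0.0391). Across mt-Nd2, mt-Tm over mt-Tw gave 1.60, 2.29 and 1.45 in the wild-type and 2.07, 2.32 and 1.73 in the heterozygous libraries, a geometric mean of 1.88 with the same p-values. With any library left out, the smallest p-value 5 libraries allow is 0.0625, so these 4 steps then missed the threshold of 0.05 while keeping their direction. Ligation, reverse transcription and alignment can differ between tRNAs, and their part in these steps was not tested.

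**Figure D5:**
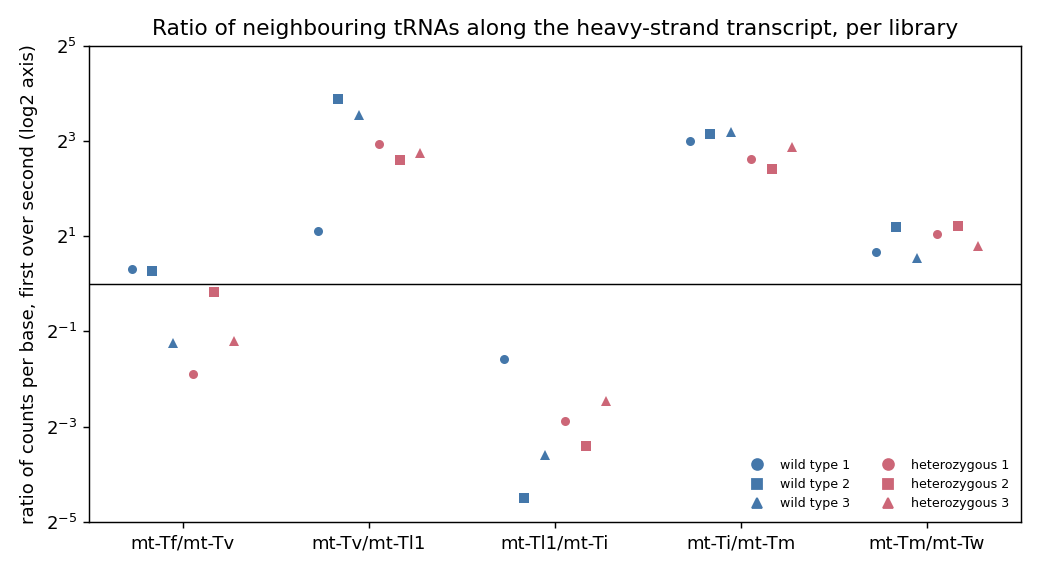
Ratio of counts per base between neighbouring tRNAs (first over second, log2 axis), with a point for each of the 6 libraries and a line at equal levels. mt-Tl1 lies below mt-Tv and mt-Ti in all 6 libraries, and for mt-Ti over mt-Tm the heterozygous libraries (5.31 to 7.31) lie below the wild-type ones (8.03 to 9.19).

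Genotype differences in these ratios were tested as well. The ratio of mt-Ti to mt-Tm was lower in each heterozygous library than in each wild-type library, by -0.48 on the log2 scale (exact permutation p = 0.1, the smallest possible, Benjamini-Hochberg over the 5 ratios 0.5). It was the only 1 of the 5 ratios to separate the genotypes, and 8.23% of the 231 ratios of 2 mitochondrial tRNAs did so. With any library left out the difference stayed between -0.6 and -0.37. The ratio of mt-Tf to mt-Tv differed by -0.87 (exact permutation p = 0.3), from -1.38 without wild-type replicate 3 to -0.46 without heterozygous replicate 1. The other ratios differed by less, mt-Tv to mt-Tl1 by -0.08 (exact permutation p = 1), mt-Tl1 to mt-Ti by 0.31 (exact permutation p = 0.8) and mt-Tm to mt-Tw by 0.21 (exact permutation p = 0.4).

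Transcripts that followed the 6 across libraries were named by the smallest SD of the log2 ratio of counts over the 6 libraries, among transcripts with a mean of at least 100 normalised counts. For the sum of the 6 the closest of 448 were the light-strand tRNAs mt-Tn (SD 0.178), mt-Te (0.203) and mt-Tq (0.217), and 6 of the 20 closest were mitochondrial tRNAs. mt-Ti was closest to mt-Tt, a distal heavy-strand tRNA (SD 0.155), with 8 mitochondrial tRNAs among its 20 closest.

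Closest to mt-Tf, mt-Tv, mt-Tm and mt-Tw were transcripts from nuclear genes. These were the snoRNAs AF357399 for mt-Tf (SD 0.358), Gm22620 for mt-Tv (0.368), Rnu73b for mt-Tm (0.21) and Gm22571 for mt-Tw (0.23). For mt-Tv, 13 of its 20 closest transcripts were mitochondrial tRNAs, and for mt-Tf, mt-Tm and mt-Tw there were 3, 5 and 5.

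mt-Tl1 had 0 of the other mitochondrial tRNAs among its 20 closest, the fewest of the 6. Mitochondrial tRNAs outside the 6 were not given this measure. The closest to mt-Tl1 was a feature with an RNAcentral identifier, URS000074448D_10090 (SD 0.18), whose counts were 92, 84 and 188 in the wild-type and 492, 259 and 121 in the heterozygous libraries. Its sequence was not used here. These likenesses are descriptions over 6 libraries that share depth and preparation.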

How the data were processed

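Short RNA of the duodenum of 6 female mice was sequenced. The authors selected and demethylated RNA, trimmed the paired reads (Cutadapt), estimated transcript counts with Salmon on a GRCm39 index of mouse RNAs with decoys, and kept short sequences (tximport). They deposited these estimated counts (expected counts) as whole numbers, a column for each library, without normalisation. Columns of the second group bear the name of another Pol III subunit and were taken as the heterozygotes, the only other group. The columns cover short transcripts only, so their totals are not the sequencing depth.

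The transcripts were named through GENCODE vM21 on GRCm38. Of 1742 Ensembl identifiers 1356 matched, and the 22 mitochondrial tRNAs matched with the same version, so sequences and coordinates come from that annotation. Another 187 features had RNAcentral identifiers. Similarity was searched with BLAST 2.17.0 and identity was computed with Biopython 1.88.

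Genotypes were compared over all transcripts with the DESeq2 1.42.0 Wald test (R 4.3.3, median-of-ratios size factors, default filtering, Benjamini-Hochberg adjusted p under 0.1), after the study's methods, and edgeR 4.0.16 was the alternative. Both were tested on simulated data. Shares and ratios were compared by exact two-sided permutation tests over the 20 assignments of the libraries, and neighbours by 64 sign flips (Python 3.11.15, numpy 2.4.6, scipy 1.17.1). A pseudocount of 0.5 was added for the ratios of neighbours, the means of log2 counts and the search for the closest transcripts, but not for shares or ratios of summed counts. Wilson intervals (95%) cover only counting error, because without molecular identifiers copies of 1 molecule cannot be told from separate molecules.

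The members, lists and tests were chosen with earlier results of these data known. By rule, the text names the 6 tRNAs, the highest and lowest of each other group of mitochondrial tRNAs, the short mitochondrial mRNAs, and the transcripts closest to the sum (3) and to each tRNA (1). Alternatives were other size factors, filters, thresholds, denominators and pseudocounts, and leaving out each library.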

Additional observations from a re-analysis of the deposited data

How the results depend on the processing

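The number of the 6 tRNAs called was 0 under every alternative run, including edgeR, other size factors and filters, and each left-out library. Of 259 values under alternatives, over 26 results, 206 kept their direction and side of the threshold. Another 24 kept their direction but missed it, all of them neighbour ratios with a library left out (p = 0.0625 in the exact permutation test). The other 29 turned direction, none of a call. Exact permutation tests between genotypes cannot give a p-value below 0.1, so those shares and ratios could not cross the threshold of 0.05. For them, keeping the side of the threshold was fixed in advance. With library totals the log2 fold changes became -0.28 for mt-Tv, -0.07 for mt-Tl1, -0.01 for mt-Tm and -0.24 for mt-Tw. With size factors that left out mitochondrial tRNAs and all features with RNAcentral identifiers mt-Ti became 0.01. With each library left out in turn they ran from -0.19 to 0.53 for mt-Tv, -0.13 to 0.72 for mt-Tl1, -0.44 to 0.1 for mt-Ti, 0.06 to 0.6 for mt-Tm and -0.12 to 0.45 for mt-Tw. mt-Tf stayed below 0 under all 14 alternatives, from -1.2 to -0.35, at a DESeq2 or edgeR adjusted p of 0.401 or more. As shares of the whole table the log2 differences were -0.19 for mt-Tv, -0.11 for mt-Tl1 and -0.15 for mt-Tw, and as a share of heavy-strand tRNAs mt-Tv was -0.03. mt-Tf was at -1.06 as a share of the whole table (exact permutation p = 0.1, the smallest possible), against -0.82 as a share of mitochondrial tRNA counts (exact permutation p = 0.2). With libraries left out the log2 differences in share of mitochondrial tRNA counts ran from -0.16 to 0.3 for mt-Tv, -0.59 to 0.99 for mt-Tl1 and -0.2 to 0.25 for mt-Tw. The ratio to the light-strand tRNAs became 0.04 with the mean of log2 counts. The genotype difference ran from -0.96 to 0.44 for mt-Tv over mt-Tl1 and from -0.33 to 1.13 for mt-Tl1 over mt-Ti. The -0.96 was without wild-type replicate 1 (exact permutation p = 0.1, the smallest possible) and the 0.44 without wild-type replicate 2. The cause of these turns was not tested. Summing near-identical transcripts was not run, since 0 were found. No paired analysis was possible because nothing in the sources ties the numbers of the heterozygous columns to mice or to the wild-type replicates. With 3 libraries a group, the 95% intervals of the log2 fold changes were wide. They ran from -1.3 to 1.62 for mt-Tv and from -0.91 to 1.2 for mt-Tw. Both include 0, and changes as large as their ends are not excluded either.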
